A study of Mus musculus with 10 samples.

Results

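Matricellular and adhesive matrix glycoproteins were followed through 8 genes, Tnc, Postn, Fn1, Sparc, Sparcl1, Thbs1, Thbs2 and Spp1, which were picked by gene symbol from the 55486 gene rows of the count table. Their expression was compared between normal mammary fibroblasts (NFs) and tumor cells of mouse invasive lobular carcinoma (ILC), between CD26- and CD26+ NFs, and between gels with one or both cell kinds. NFs came from mammary glands of mTmG mice aged 8 weeks, in which cells carry membrane Tomato until Cre switches them to membrane GFP. The CD26+ NFs had been switched to GFP with adeno-Cre and the CD26- NFs had not, so the virus and the subset cannot be told apart. Tumor cells were of the lines 13-MCB-17 and 10-SJK-221, derived from tumors of mice whose alleles include WapCre and Cdh1F/F, in which Cre is driven by the milk protein promoter Wap and removes E-cadherin. The cells grew for 7 days in gels of collagen and basement membrane extract, and were then sorted into Tomato+, GFP+ and unlabelled cells. Gel 1 held both NF subsets without tumor cells and gave a CD26- and a CD26+ library. Gel 2 held 13-MCB-17 alone and gel 3 held 10-SJK-221 alone, with 1 library each. Gel 4 held both NF subsets with 13-MCB-17 and gel 5 both with 10-SJK-221, and each gave a CD26-, a CD26+ and a tumor library. Only 1 gel therefore represents NFs alone, and co-cultured NFs of gels 4 and 5 differ in the tumor line beside them. Nothing in the labels says that the gels held NFs from separate mice, so p-values measure the spread between the libraries of each fit. In culture tests within 1 NF subset, NFs alone had 1 library, so the spread came from the co-culture groups.

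Matricellular proteins are secreted into the extracellular matrix but mainly tune how cells attach and signal, rather than carrying load. Tenascin-C (Tnc) and periostin (Postn) are scarce in most resting adult connective tissue and appear in wounds, in the developing and remodelling breast and in the stroma of carcinomas. Fibronectin (Fn1) is the adhesive scaffold on which many of them assemble. Sparc and its relative Sparcl1 (hevin) bind collagen, the thrombospondins Thbs1 and Thbs2 bind matrix and restrain blood vessel growth, and Spp1 is osteopontin, a secreted ligand of integrins and of CD44. Several of these ligands engage integrins through a short arginine-glycine-aspartate motif, known as RGD.

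The RGD motif occurs in some of the 8 proteins, and the codons for it are shown because the receptors are examined further on. Proteins without it, such as periostin, can be integrin ligands too. In the longest coding transcript of each gene (GENCODE M21, GRCm38), 2 RGD motifs lay in Fn1, 1 each in Thbs1, Thbs2 and Spp1, and 0 in Tnc, Postn, Sparc and Sparcl1. The windows of 33 coding bases below run 5′ to 3′ on the coding strand, with the RGD codons in capitals.
Fn1, residue 1614 of 2477, exon 30, chr1:71606734-71606766, minus strand: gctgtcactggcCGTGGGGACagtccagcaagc
Fn1, residue 2181 of 2477, exon 40, chr1:71597431-71597463, minus strand: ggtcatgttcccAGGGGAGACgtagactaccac
Thbs1, residue 927 of 1171, across exons 17 and 18, chr2:118122677-118122902, plus strand: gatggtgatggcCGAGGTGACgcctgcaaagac
Thbs2, residue 928 of 1172, across exons 17 and 18, chr17:14671472-14673147, minus strand: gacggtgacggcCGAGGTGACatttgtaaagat
Spp1, residue 145 of 295, exon 7, chr5:104439469-104439501, plus strand: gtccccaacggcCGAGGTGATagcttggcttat
The Thbs1 and Thbs2 windows sit at neighbouring residues and each span the junction of those exons, and those of both Fn1 and Spp1 lie inside a single exon.

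The promoters of Tnc, Postn and Spp1 are shown because these genes rose beside tumor cells in one or both NF subsets. The RefSeq promoter table (GRCm38.p6) held windows for 5 of the 8 genes, Tnc, Postn, Sparc, Thbs2 and Spp1. The 250 bases before the start site were searched on both strands for TATAAA (bound by TBP), for TGANTCA (AP-1), for GGGCGG (GC box), for GGAATG (TEAD), for GTGGGAA (RBPJ) and for the CArG box. Matches are in capitals.
Tnc, the downstream of 2 overlapping start sites, chr4:64046937-64047186, minus strand: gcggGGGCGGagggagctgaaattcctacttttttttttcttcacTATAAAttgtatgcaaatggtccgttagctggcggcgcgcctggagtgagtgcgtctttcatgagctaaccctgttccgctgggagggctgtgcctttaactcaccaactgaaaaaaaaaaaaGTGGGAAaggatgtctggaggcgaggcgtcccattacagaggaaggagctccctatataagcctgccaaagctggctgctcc
Postn, chr3:54360857-54361106, plus strand: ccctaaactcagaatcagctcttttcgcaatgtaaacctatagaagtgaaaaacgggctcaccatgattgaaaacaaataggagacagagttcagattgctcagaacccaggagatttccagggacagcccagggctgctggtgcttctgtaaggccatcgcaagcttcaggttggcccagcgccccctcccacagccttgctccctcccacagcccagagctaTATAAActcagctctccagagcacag
Spp1, chr5:104434861-104435110, plus strand: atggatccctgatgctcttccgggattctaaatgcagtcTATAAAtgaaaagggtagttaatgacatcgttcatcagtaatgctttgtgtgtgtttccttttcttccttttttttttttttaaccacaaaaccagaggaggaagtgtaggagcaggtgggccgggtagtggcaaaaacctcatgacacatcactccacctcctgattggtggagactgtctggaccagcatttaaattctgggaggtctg
Tnc, Postn and Spp1 each had 2 windows in the table, so the 5 genes had 8. TATAAA matched in 5 of the 8 windows (both of Tnc, 1 each of Postn and Spp1, and Thbs2), against 12.4% of the 32851 windows of all genes. The Tnc windows overlap and hold the same TATAAA site, so it is counted more than once. In the windows shown it began 26 bases before the start site in Postn, 205 in Tnc and 211 in Spp1. The GC box, found in 32.7% of all windows, and the RBPJ letters, found in 5.42%, matched in Tnc only. The AP-1, TEAD and CArG motifs matched in 0 of the 5 genes, against 6.75%, 12.6% and 1.47% of all windows. These matches describe the letters of the windows and are not evidence of binding.

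Depth ranged from 14142334 to 18408940 counts per library, where 3 counts correspond to at most 0.212 CPM (counts scaled to a library total of 1000000). The fibroblast marker list (10 genes) summed to 28601-80945 CPM in the 6 NF libraries and to 65.8-459 CPM in the 4 tumor libraries. The epithelial list (10 genes) summed to 3602-4875 CPM in tumor cells and to 0.435 and 0.912 CPM in NFs alone, but to 107-285 CPM in co-cultured NFs, where all 10 markers were above 3 counts. Both lists thus separated NF from tumor libraries, and the part of tumor transcripts in the NF results was not tested. Cdh1, which carries floxed alleles in these tumors, stood at 239 CPM in 13-MCB-17 and 269 CPM in 10-SJK-221 without NFs, at 144 and 140 CPM in the tumor libraries of gels 4 and 5, and at 0 counts in NFs alone, and counts per gene do not show whether reads came from the deleted exons. Dpp4, which encodes CD26, had 0, 0 and 1 counts in the CD26- libraries of gels 1, 4 and 5 and 4, 12 and 4 counts in the CD26+ libraries. Those counts are near the detection limit and give only a weak check of the subset labels. Immune and endothelial markers (10 genes) summed to 6.71-305 CPM, and Cd68 made up 299 of the 305 CPM in 13-MCB-17 cells alone. The values are from bulk libraries, in which fewer expressing cells and less RNA per cell cannot be told apart.

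Together the 8 genes took up a larger share of all counts in every co-cultured library than in the same population grown alone. In CD26- NFs the share was 3.85% alone and 6.6% and 7.74% in gels 4 and 5. In CD26+ NFs it was 3.15% alone and 5.26% and 5.48% beside tumor cells. Tumor cells devoted 1.76% and 2.32% of their counts to the 8 genes alone and 2.51% and 2.75% in co-culture. Scaled by length, as CPM per kilobase of merged exons, the order of the genes within a library also changed. Among NFs alone Sparc was highest, at 2685 and 2501 CPM per kilobase, and it ranked 6th and 8th of all genes in the CD26- and CD26+ library. Beside tumor cells Spp1 was the highest of the 8 genes in NFs, at 4341-7229 CPM per kilobase in the 4 libraries, and it ranked first or second of all genes. Fn1 (1522-2622 CPM per kilobase), Sparc (1404-2371) and Tnc (1183-1913) followed, with ranges that overlapped. Sparcl1 was the lowest of the 8 genes in every NF library, at 11.4-136 CPM per kilobase.

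**Figure D1:**
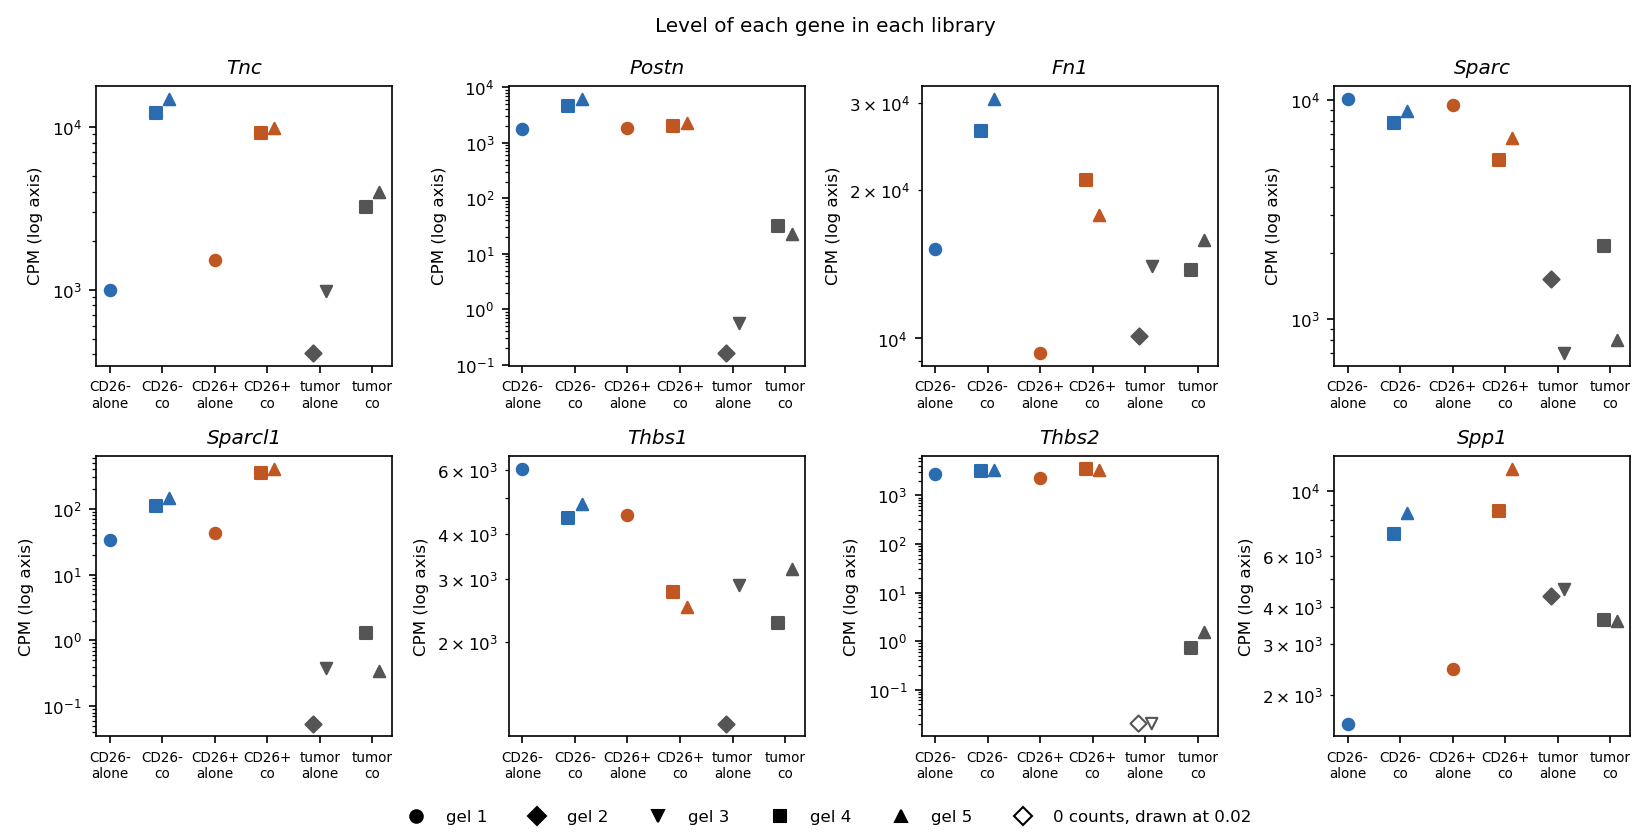
Each panel plots 1 gene, with CPM on a log axis and 1 point for each of the 10 libraries, grouped by population and culture (co, co-culture) and shaped by gel. Tnc and Spp1 in NFs lie far above their values alone in both co-culture gels, and Thbs2 in tumor cells alone has 0 counts in both libraries (open symbols).

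In NFs, 7 of the 8 genes changed with co-culture when both subsets were tested together, 6 higher and 1 lower, against 46.5% of all 16231 genes tested (24.9% higher and 21.6% lower). The number called was 5 without the NFs of gel 4 and 4 without those of gel 5. Of all genes, 5895 and 5498 were called in those fits, against 7551 in the main fit. The median log2 fold change of the 8 genes was 0.96, and that of all genes tested was 0.03. In CD26- NFs 5 genes rose and 0 fell, where 16.6% of all genes rose and 14.1% fell (30.8% together). In CD26+ NFs 4 genes rose and 1 fell, where 19.0% of all genes rose and 15.2% fell (34.2% together). Both tests draw on gel 1 for NFs alone. When both NF libraries of gel 4 or of gel 5 were left out, each NF group held 1 library and the spread came from the 4 tumor libraries alone. In those fits most calls were lost, among the 8 genes as among all genes, and Tnc was not called in either subset. In tumor cells 7 genes could be tested and 3 rose, against 22.3% of all 13197 genes (10.8% higher and 11.5% lower). Postn (3 and 9 counts alone) and Thbs2 (0 and 0 counts alone) passed the filter on low counts through co-culture only and could be called in 1 direction, so this count is a description. Sparcl1 was too low in tumor cells to be tested.

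**Figure D2:**
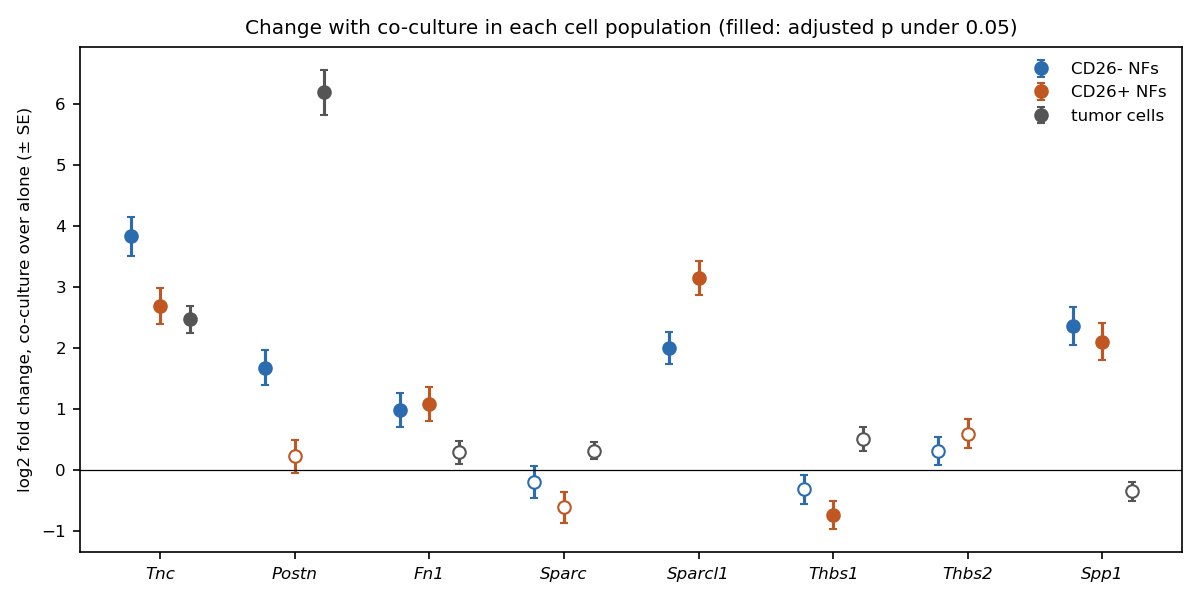
Points give the log2 fold change of co-culture over growth alone from edgeR, with the SE as bars, for CD26- NFs (2 libraries against 1), CD26+ NFs (2 against 1) and tumor cells (2 against 2). Filled points passed an adjusted p of 0.05, and the tumor values of Sparcl1 (not tested) and Thbs2 (0 counts alone) are not drawn. The tumor value of Postn rests on 3 and 9 counts alone and could be called in 1 direction only. Tnc rose in all 3 populations, whereas Spp1 and Fn1 rose in the NFs and did not pass the test in tumor cells.

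Tnc (ENSMUSG00000028364, chr4:63959785-64047015, minus strand) encodes tenascin-C, a hexameric glycoprotein that loosens cell adhesion to fibronectin. Alone, it stood at 997 CPM in CD26- and 1514 CPM in CD26+ NFs. Beside tumor cells CD26- NFs reached 12143 CPM in gel 4 and 14870 CPM in gel 5, while CD26+ NFs reached 9197 and 9851 CPM. Every co-cultured NF library was therefore above both libraries of NFs alone. The log2 fold change was 3.83 ± 0.32 (SE, adjusted p = 9.536e-07) in CD26- NFs and 2.69 ± 0.30 (adjusted p = 1.379e-05) in CD26+ NFs. Each call held when 1 co-culture library of its subset was left out of the 6 NF libraries.
Tumor cells alone had 408 CPM in 13-MCB-17 and 987 CPM in 10-SJK-221, and in co-culture 3216 and 3982 CPM. The 4 tumor values did not overlap between cultures, and Tnc rose by a log2 fold change of 2.47 ± 0.23 (adjusted p = 0.0002817), a call that held without any 1 tumor library. Between NFs and tumor cells this response differed by 0.90 ± 0.47 on the log2 scale (adjusted p = 0.219), which did not pass the test.
The NF subsets stood in opposite order in the gels. CD26+ NFs were higher by 0.47 on the log2 scale in gel 1, and in gels 4 and 5 the difference was -0.60 and -0.79. Within co-culture the difference of -0.68 ± 0.21 had an adjusted p of 0.0781, and with the gel as a block the adjusted p was 0.003906.

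Postn (ENSMUSG00000027750, chr3:54361109-54391037, plus strand) encodes periostin, which binds collagen and fibronectin and is a ligand of αv integrins. Both NF subsets had nearly the same level alone, 1792 CPM in CD26- and 1885 CPM in CD26+ NFs. In gels 4 and 5 the CD26- NFs reached 4681 and 6224 CPM, whereas the CD26+ NFs stood at 1969 and 2314 CPM. Co-cultured CD26- NFs were thus above all other libraries, and co-cultured CD26+ NFs were close to NFs alone. The rise in CD26- NFs was 1.68 ± 0.29 (adjusted p = 0.00055), and in CD26+ NFs the log2 fold change was 0.22 ± 0.27 (adjusted p = 0.5414). Over both subsets it was 0.89 ± 0.31 (adjusted p = 0.03647), a call lost without gel 5 (adjusted p = 0.09063) and with DESeq2 (0.1059).
Within co-culture, CD26+ NFs had less Postn, by -1.53 ± 0.22 on the log2 scale (adjusted p = 0.001121). The call was lost when the CD26+ library of gel 4 (-1.39, adjusted p = 0.1664) or of gel 5 (-1.70, adjusted p = 0.1555) was left out.
Tumor cells alone had 3 and 9 counts of Postn, or 0.163 and 0.573 CPM, and in co-culture 554 and 393 counts, or 31.3 and 22.4 CPM. The groups did not overlap, and since the gene passed the filter through co-culture only, no test is given. The co-culture values amounted to 0.942% and 0.525% of the NF mean of the same gel. For the 10 fibroblast markers the median of this percentage was 0.294% in gel 4 and 0.173% in gel 5, with a range of 0-10.7% and 0.0396-9.92%. The markers at the upper end, Col6a1 and Pdgfra, were also present in tumor cells alone, at 32.6 and 24.4 CPM and at 67.7 and 35.6 CPM. What part of the tumor value came from fibroblast RNA was not tested.

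Fn1 (ENSMUSG00000026193, chr1:71585520-71653200, minus strand) encodes fibronectin, which cells assemble into fibrils through α5β1 and αv integrins. NFs alone had 15160 CPM in the CD26- and 9339 CPM in the CD26+ library. Co-cultured CD26- NFs had 26356 and 30638 CPM, and co-cultured CD26+ NFs had 20974 and 17787 CPM. All 4 co-culture values lay above both values of NFs alone. The log2 fold change was 0.98 ± 0.28 (adjusted p = 0.01627) in CD26- and 1.09 ± 0.28 (adjusted p = 0.008855) in CD26+ NFs, so the increases were of similar size. Each of these calls was lost without 1 of its co-culture libraries, with adjusted p of 0.05008 (gel 4 left out) and 0.1264 (gel 5) in CD26- NFs, and 0.1129 and 0.07077 in CD26+ NFs. Over both subsets the rise was 1.03 ± 0.20 (adjusted p = 0.001763).
In every gel CD26+ NFs had less Fn1 than CD26- NFs, by -0.83, -0.53 and -0.98 on the log2 scale in gels 1, 4 and 5. Over 3 gels the difference was -0.77 ± 0.18 (adjusted p = 0.03028), and without gel 1 (adjusted p = 0.1182), gel 4 (0.1194) or gel 5 (0.2759) it did not pass the test.
Tumor cells alone had 10093 and 13995 CPM, and 13777 and 15874 CPM in co-culture. The groups overlapped on the CPM scale but not after TMM scaling (9579.5 and 12663 alone, 12818 and 14282 in co-culture), and the log2 fold change of 0.29 ± 0.19 (adjusted p = 0.3158) did not pass the test. In gels 4 and 5 tumor cells stood at 58.2% and 65.6% of the NF mean.

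Sparc (ENSMUSG00000018593, chr11:55394500-55423183, minus strand) encodes osteonectin, a collagen-binding glycoprotein. It stood at 10171 and 9475 CPM in CD26- and CD26+ NFs alone. In gels 4 and 5 the CD26- libraries had 7911 and 8980 CPM, and the CD26+ libraries 5319 and 6752 CPM. On the CPM scale all 4 co-culture values lay below both values alone. After the TMM scaling used in the test, the CD26- library of gel 5 (10524) lay above CD26+ NFs alone (9421). The log2 fold change over both subsets, -0.41 ± 0.19, had an adjusted p of 0.1053. With DESeq2 the adjusted p was 0.0489. In co-culture CD26+ NFs were lower than CD26- NFs in both gels, with a log2 difference of -0.66 ± 0.22 (adjusted p = 0.09761), and 0.003657 with the gel as a block.
In tumor cells Sparc differed between the lines. The line 13-MCB-17 had 1520 CPM alone and 2145 CPM in co-culture, and 10-SJK-221 had 696 and 795 CPM. The difference between lines, 10-SJK-221 less 13-MCB-17, was -1.35 ± 0.14 (adjusted p = 0.0006248), and that between cultures was 0.32 ± 0.14 (adjusted p = 0.1334). Of the 7 genes tested, 2 differed between the lines, Sparc and Thbs1, where 14.5% of all genes were called (5.93% higher and 8.54% lower in 10-SJK-221).

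Sparcl1 (ENSMUSG00000029309, chr5:104079111-104113733, minus strand) encodes hevin, a Sparc relative known for promoting synapse formation in brain and present in mural and stromal cells. Unlike Sparc, it rose in NFs beside tumor cells, and more of it was found in CD26+ NFs. Alone, it was at 33.3 CPM in CD26- and 43.4 CPM in CD26+ NFs. Co-culture brought CD26- NFs to 110 and 144 CPM and CD26+ NFs to 346 and 399 CPM. None of the 3 pairs of groups (alone, CD26- co-culture, CD26+ co-culture) overlapped. The log2 fold change with co-culture was 2.00 ± 0.26 (adjusted p = 6.253e-05) in CD26- and 3.14 ± 0.28 (adjusted p = 2.062e-06) in CD26+ NFs.
In co-culture CD26+ NFs had more Sparcl1 than CD26- NFs, by 1.37 ± 0.19 on the log2 scale (adjusted p = 0.001012). That call was lost without the CD26+ library of gel 4 (adjusted p = 0.1542) or gel 5 (adjusted p = 0.1555). Over 3 gels the difference was 1.01 ± 0.23 (adjusted p = 0.0274), with adjusted p of 0.08128 without gel 4 and 0.2104 without gel 5.
Tumor libraries held 1, 6, 23 and 6 counts of Sparcl1 in gels 2 to 5, so the transcript was at or near the limit of counting in tumor cells.

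Thbs1 (ENSMUSG00000040152, chr2:118111876-118127133, plus strand) encodes thrombospondin-1, which inhibits angiogenesis through CD36 and CD47 and activates latent TGF-β. NFs alone had 6025 CPM in the CD26- and 4507 CPM in the CD26+ library. In co-culture CD26- NFs had 4416 and 4815 CPM, and CD26+ NFs had 2759 and 2503 CPM. Within each subset the co-culture values were below the value alone. Over both subsets Thbs1 fell by 0.53 on the log2 scale (SE 0.17, adjusted p = 0.02513), the one decrease called among the 8 genes. The call was lost without gel 4 (adjusted p = 0.1402) or gel 5 (0.06229). In CD26+ NFs the log2 fold change was -0.74 ± 0.23 (adjusted p = 0.02549), with adjusted p of 0.09467 and 0.09466 when the CD26+ library of gel 4 or gel 5 was left out. In CD26- NFs it was -0.32 ± 0.23 (adjusted p = 0.3337).
CD26+ NFs had less Thbs1 than CD26- NFs in each gel, by -0.55, -0.88 and -1.14 on the log2 scale in gels 1, 4 and 5. Over 3 gels the difference was -0.85 ± 0.16 (adjusted p = 0.01546). It did not pass without gel 4 (adjusted p = 0.08701) or gel 5 (0.21). Within co-culture it was -0.99 ± 0.20 (adjusted p = 0.008943), and the call was lost without any 1 of the 4 libraries (adjusted p of 0.05666-0.1918).
Tumor cells had 1192 CPM (13-MCB-17) and 2886 CPM (10-SJK-221) alone, and 2262 and 3191 CPM in co-culture. The line 10-SJK-221 was higher in both cultures, by 0.81 ± 0.19 (adjusted p = 0.02694), while the log2 fold change with co-culture, 0.51 ± 0.19, had an adjusted p of 0.09702. In shared gels Thbs1 was the one gene of the 8 that was not higher in NFs by the test, with a log2 difference of 0.56 ± 0.31 (adjusted p = 0.1686), and 0.02729 with the gel as a block.

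Thbs2 (ENSMUSG00000023885, chr17:14665500-14694235, minus strand) encodes thrombospondin-2, a relative of Thbs1 that also shapes collagen fibril assembly. It was the steadiest of the 8 genes across NF libraries on the CPM scale, with 2734 and 2290 CPM alone. In gels 4 and 5 the CD26- libraries had 3184 and 3288 CPM, and the CD26+ libraries 3459 and 3296 CPM. The co-culture values lay in a narrow band just above both values alone. Over both subsets the log2 fold change was 0.45 ± 0.16 (adjusted p = 0.03981), and the call was lost without gel 4 (adjusted p = 0.1056) or gel 5 (0.1488). The subsets differed by -0.21 ± 0.15 over 3 gels (adjusted p = 0.4251).
Both libraries of tumor cells alone held 0 counts of Thbs2, which places NFs alone at least 14199.3-fold higher when 3 counts are taken as the limit in each library. Co-cultured tumor cells had 13 and 27 counts, or 0.735 and 1.54 CPM. This was at least 6.43-fold above tumor cells alone and amounted to 0.0221% and 0.0468% of the NF mean in gels 4 and 5, within the range of the fibroblast markers.

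Spp1 (ENSMUSG00000029304, chr5:104435118-104441050, plus strand) encodes osteopontin. Of its merged exon bases, 18.8% overlap the gene model Gm42793 on the same strand, so its reads may have been shared in counting. NFs alone had 1595 CPM in the CD26- and 2450 CPM in the CD26+ library. Beside tumor cells CD26- NFs had 7154 and 8404 CPM, and CD26+ NFs had 8572 and 11914 CPM. The groups did not overlap, and the log2 fold change was 2.36 ± 0.31 (adjusted p = 6.723e-05) in CD26- and 2.11 ± 0.31 (adjusted p = 0.0001561) in CD26+ NFs.
In tumor cells Spp1 did not pass the test. They had 4385 and 4621 CPM alone and 3618 and 3592 CPM in co-culture, a log2 fold change of -0.35 ± 0.15 (adjusted p = 0.1417). The NF response exceeded the tumor response by 2.57 ± 0.31 on the log2 scale (adjusted p = 0.001147, a comparison added after the values were seen, in which 20.2% of all genes were called).
The order of the cell kinds therefore changed with culture. Alone, NFs had less Spp1 than tumor cells, with a log2 difference of -1.06 ± 0.23 (adjusted p = 0.004708), and in shared gels they had more, with 1.51 ± 0.21 (adjusted p = 0.0004684). The latter had an adjusted p of 0.05949 without gel 5. No difference between NF subsets passed the test, with 0.31 ± 0.19 over 3 gels (adjusted p = 0.3566).

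Between the NF subsets over 3 gels, 3 of the 8 genes were called, Fn1 and Thbs1 lower and Sparcl1 higher in CD26+ NFs, against 7.23% of all genes (3.63% higher and 3.60% lower). Postn, at -1.05 ± 0.28, had an adjusted p of 0.05135, and 0.02808 with the gel as a block. Within co-culture alone, Postn and Thbs1 were lower and Sparcl1 was higher, 3 of 8 genes against 6.01% of all genes (3.48% higher and 2.53% lower). Leaving out 1 co-culture library left 0-2 of them called, and 0 without the CD26+ library of gel 4 or of gel 5. These comparisons share the libraries of gels 4 and 5. With the gel as a block, 6 of the 8 genes were called in co-culture, with Tnc, Fn1 (adjusted p = 0.00184) and Sparc lower in CD26+ NFs. The matching block raised the number of all genes called from 975 to 2407.

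**Figure D3:**
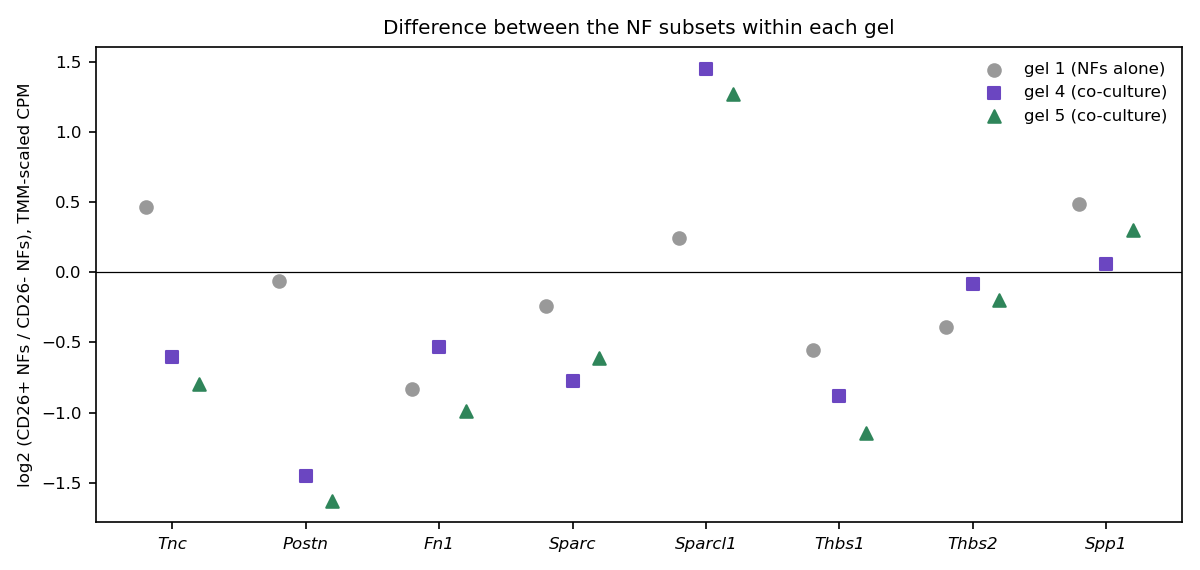
For each gene, 3 points show the log2 ratio of CD26+ to CD26- NFs on TMM-scaled CPM, 1 for each gel that held NFs, and points below 0 are higher in CD26- NFs. Postn, Fn1, Sparc, Thbs1 and Thbs2 lie below 0 in all 3 gels, Postn in gel 1 and Thbs2 in gel 4 close to it. Sparcl1 and Spp1 lie above 0 in all 3, Spp1 in gel 4 close to it, and Tnc changes side between gel 1 and gels 4 and 5.

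An interaction term tested whether the subsets responded differently to tumor cells. By edgeR 0 of the 8 genes passed, against 0.376% of all genes (0.228% higher and 0.148% lower), and 3 had an unadjusted p under 0.05. These were Postn, with -1.45 ± 0.38 (adjusted p = 0.1578), Tnc, with -1.14 ± 0.37 (adjusted p = 0.3561), and Sparcl1, with 1.14 ± 0.34 (adjusted p = 0.2862). With the gel as a block all 3 passed, with adjusted p of 7.495e-05 for Postn, 0.003552 for Tnc and 0.01346 for Sparcl1. DESeq2 called 2, Postn (adjusted p = 0.007957) and Tnc (0.04606). Of all genes, 395 were called with the block and 97 by DESeq2, against 61 of 16231 in the main fit. The response of Fn1 differed by 0.11 ± 0.38 between the subsets and that of Spp1 by -0.25 ± 0.39.

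Most of the 8 genes were higher in NFs than in tumor cells. In shared gels 7 of 8 were called higher in NFs, against 51.8% of all 17048 genes called, 27.7% higher and 24.2% lower. Grown alone, 6 were higher in NFs and Spp1 was lower, against 55.5% called (28.4% higher and 27.1% lower). Of the 6, Postn (3 and 9 counts in tumor cells alone), Sparcl1 (1 and 6) and Thbs2 (0 and 0) were, of the groups compared, above the limit of the filter in NFs only and could be called in 1 direction, so that count is a description. Without gel 5, each co-culture group held 1 library, and fewer of the 8 genes, like fewer of all genes, were called in shared gels. Postn, Sparcl1 and Thbs2 stayed called. Co-cultured tumor cells held 23 and 6 counts of Sparcl1 and 13 and 27 of Thbs2, near the limit of counting. The call for Tnc between cells grown alone (adjusted p = 0.04829) was lost without gel 2 (adjusted p = 0.1682). The distance between the cell kinds varied widely. Tumor cells reached 30.1% and 32.2% of the NF mean in gels 4 and 5 for Tnc, 32.4% and 10.1% for Sparc, 46% and 35.4% for Spp1 and 63.1% and 87.2% for Thbs1. By contrast, Postn, Sparcl1 and Thbs2 were under 1% in both gels. For Tnc, Fn1, Sparc, Thbs1 and Spp1 the tumor share lay above that of every fibroblast marker in the same gel, for Sparc in gel 5 by a narrow margin. Among the markers Col6a1 was highest in gel 4 and Pdgfra in gel 5. In the other direction, the epithelial markers in co-cultured NFs had medians of 1.97-4.80% of the tumor level of their gel. Single markers ranged from 0.827% (Cldn7) to 17.7% (Krt19, the highest in each library at 9.19% or more). Tnc and Spp1 were higher in each co-cultured NF library than in the tumor cells of its gel.

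**Figure D4:**
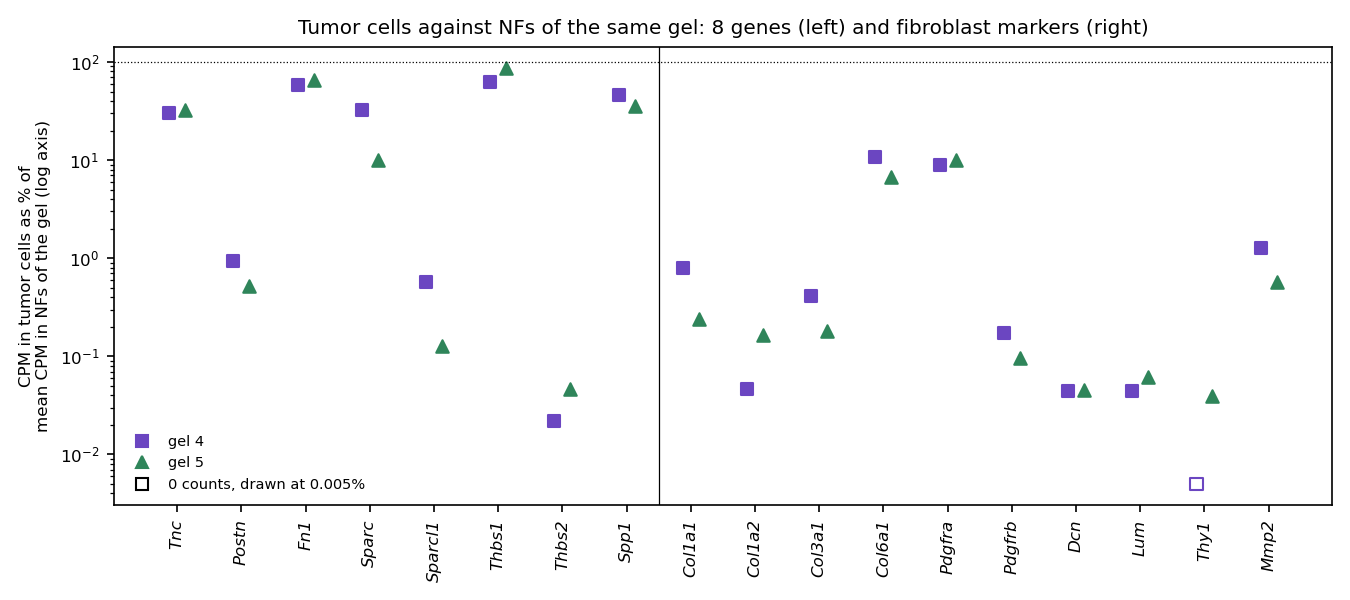
The level in tumor cells is plotted as a percentage of the mean of the 2 NF libraries of the same gel on a log axis, for the 8 genes (left) and 10 fibroblast markers (right) in gels 4 and 5. Tnc, Fn1, Sparc, Thbs1 and Spp1 lie above all markers of their gel, whereas Postn, Sparcl1 and Thbs2 lie among them.

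Relatives of the 8 genes mostly went the other way in NFs. Of 23 relatives (other tenascins, thrombospondins, fibulins, SMOC and SPOCK proteins and bone sialoproteins among them), 21 could be tested, and 3 rose and 13 fell with co-culture, with a median log2 fold change of -1.74 against 0.03 for all genes, of which 24.9% rose and 21.6% fell (46.5% called). The 3 rises were Spock1, Spock3 (0 and 0 counts alone, 3-15 in co-culture) and Dmp1 (3 and 2 alone, 2-33 in co-culture), which passed the filter through co-culture only. Tnr (27 and 43 counts alone, 0-6 in co-culture), among the 13 that fell, passed through NFs alone only. These 4 genes could be called in 1 direction, so the counts are a description. Efemp1 (fibulin-3) fell from 514 and 635 CPM alone to 0.727 and 0.978 CPM (CD26-) and to 7.71 and 10.5 CPM (CD26+) beside tumor cells, a log2 fold change of -7.38 ± 0.49 (adjusted p = 1.544e-06). Tenascin-W (Tnn) fell from 78.5 and 15.8 CPM alone to between 0.748 and 1.93 CPM, with -4.87 ± 0.50 (adjusted p = 2.789e-05), opposite to its relative Tnc. Comp, the cartilage thrombospondin, fell by 4.70 on the log2 scale (adjusted p = 1.298e-05), and Spock1, a proteoglycan of the Sparc family, had 0 and 4 counts alone against 30, 57, 80 and 198 counts in co-culture. No test is given for it. Only 1 library per subset stood for NFs alone, and for Tnn these held 1264 (CD26-) and 225 counts (CD26+). In co-culture Tnn had 19 and 13 counts in CD26- and 30 and 20 in CD26+ NFs. The drop of Efemp1 and Tnn was smaller in CD26+ NFs by the interaction test, with 3.06 ± 0.40 (adjusted p = 0.005466) and 3.11 ± 0.44 (adjusted p = 0.008073). Postn's closest relative, Tgfbi, fell by 3.69 in CD26+ NFs (adjusted p = 3.116e-08) and by 2.35 in CD26- NFs (adjusted p = 1.063e-06), a difference that missed the threshold (interaction -1.34 ± 0.29, adjusted p = 0.0862). Within co-culture Tgfbi stood lower in CD26+ than in CD26- NFs, with -1.22 ± 0.17 (adjusted p = 0.001042).
In tumor cells 9 relatives could be tested, and 5 rose and 1 fell, against 22.3% of all genes called (10.8% higher and 11.5% lower). The rises include Fstl1 (0 and 0 counts alone, 12 and 11 in co-culture) and Tnn, which passed the filter through co-culture only, so the count is a description. Tnn, which fell in NFs, had 14 and 5 counts in tumor cells alone (0.761 and 0.318 CPM) and 257 and 126 counts in co-culture. The co-culture values, 14.5 and 7.19 CPM, were above those of the NFs in the same gels. Fbln2 (fibulin-2) rose from 2255 and 2096 CPM to 7316 and 6231 CPM, with 1.61 ± 0.16 (adjusted p = 0.0003778), while Tnxb fell by 3.21 on the log2 scale (adjusted p = 0.0005579).

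Among 21 receptors of these proteins, 9 rose and 4 fell in NFs with co-culture, with a median log2 fold change of 0.42, where 24.9% of all genes rose and 21.6% fell (46.5% called). Of the rises, Itgb6 (0 and 0 counts alone, 13-34 in co-culture) passed the filter through co-culture only and could be called in 1 direction. The β3 integrin subunit Itgb3, which pairs with αv to bind the RGD motif shown above, had 13.5 and 13.2 CPM in NFs alone. Beside tumor cells the CD26- libraries of gels 4 and 5 had 521 and 446 CPM, and the CD26+ libraries 420 and 332 CPM. Its log2 fold change was 5.05 ± 0.20 (adjusted p = 5.841e-08). Tumor cells showed the same direction, from 17.7 and 10.4 CPM alone to 158 and 126 CPM, with 3.33 ± 0.14 (adjusted p = 1.561e-05). Of the other receptors in NFs, Itga4 rose by 2.88 ± 0.30 (adjusted p = 3.429e-05) and the syndecan Sdc1 by 1.66 ± 0.23 (adjusted p = 0.0002238), and annexin A2 (Anxa2) fell by 0.97 (adjusted p = 0.003179).
Between subsets over 3 gels, 2 receptors were higher and 3 lower in CD26+ NFs, against 7.23% of all genes called (3.63% higher and 3.60% lower). The higher ones were at low counts. The thrombospondin receptor Cd36 had 8, 0 and 0 counts in the CD26- libraries of gels 1, 4 and 5 and 18, 85 and 28 in the CD26+ libraries, and passed the filter through the latter only. The tenascin-binding phosphatase Ptprz1 had 10, 7 and 14 against 19, 95 and 65 counts, with 2.36 ± 0.48 (adjusted p = 0.01965). The lower ones were the tenascin and osteopontin receptor subunit Itga9, with -1.12 ± 0.17 (adjusted p = 0.004755), the osteopontin receptor Cd44, with -0.78 ± 0.14 (adjusted p = 0.01066), and Itgav, with -0.72 ± 0.15 (adjusted p = 0.02176). In tumor cells 3 receptors rose and 3 fell with co-culture among 17 tested, again against 22.3% of all genes (10.8% higher and 11.5% lower).

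**Figure D5:**
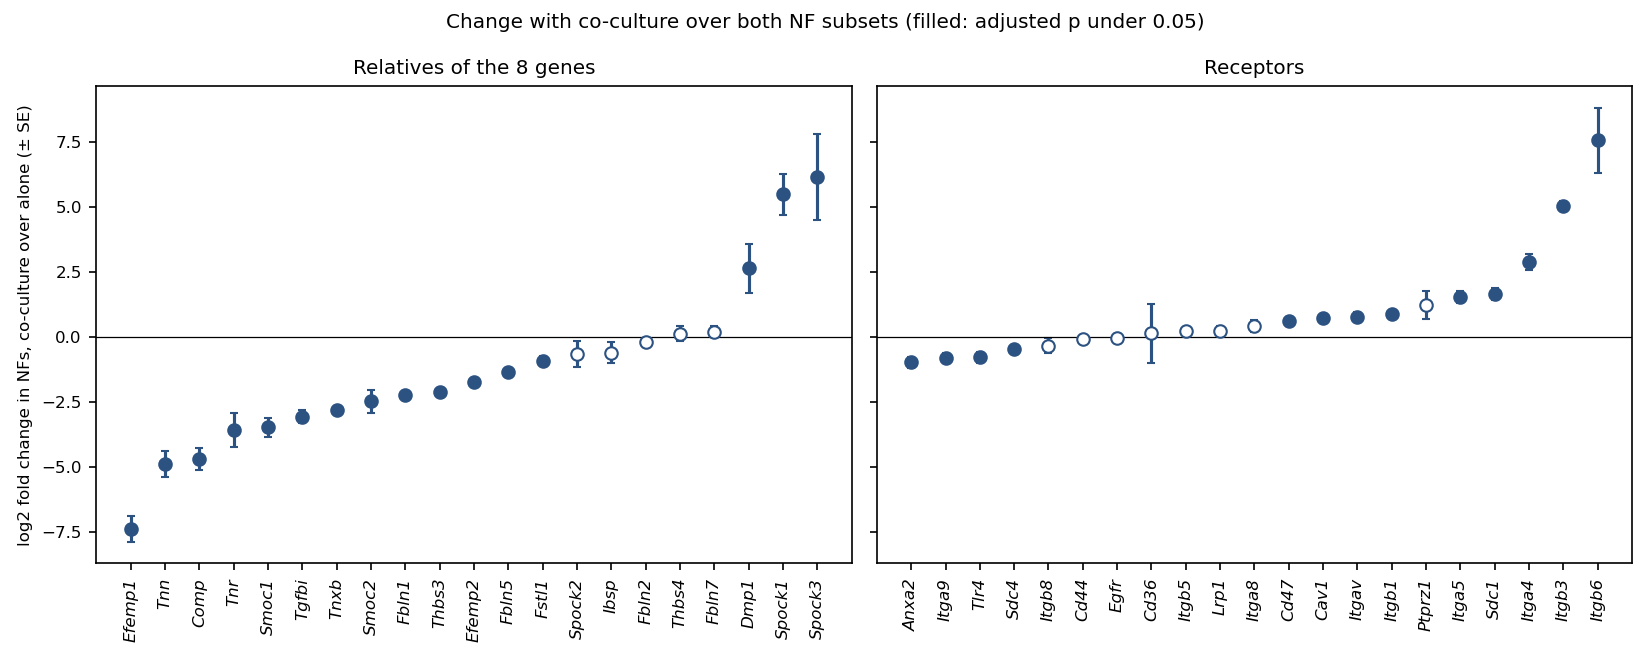
Log2 fold changes of co-culture over growth alone across both NF subsets, with the SE as bars, for 21 relatives (left) and 21 receptors (right) in ascending order, filled where the adjusted p was under 0.05. Relatives lie mostly below 0, the 3 filled above 0 rest on 0-4 counts alone, and Itgb3 is the highest receptor with a mean of at least 1 CPM.

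The genes whose profile over the 10 libraries was nearest to each of the 8 were sought among 9325 genes with a mean of at least 10 CPM, by the root mean square (RMS) difference of centred log2 values. Sparc lay nearest to Col5a1, a chain of type V collagen, at 0.15. Thbs2 lay nearest to Lox, the collagen crosslinking enzyme, at 0.36, followed by Dcn (decorin) and Col5a2. Postn had Serpinf1, Col6a2 and Col1a1 as its nearest genes, at 0.84-0.91, so no gene followed it closely. Tnc lay nearest to the protease gene Adamts4, at 0.63, and Sparcl1 to Ptgis (prostacyclin synthase), at 0.55. Fn1, Thbs1 and Spp1, whose levels overlap between the cell kinds, lay at 0.17-0.19 from Spire1, Mpdz and Ninj1.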

How the data were processed

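RNA was sequenced from 10 sorted libraries (stranded mRNA, paired ends). The authors deposited 1 table of whole-number counts per gene, not normalized, and per the submitters' processing notes reads were aligned with HISAT2 2.2.1 to GRCm38. The counting tool and its use of strand are not given in the sources used here, so genes that overlap on either strand may share reads. Of the lines of the table, 1 carried no gene identifier and held 0 counts. No sample column was left unused. Columns were matched to samples by the number in each sample's description. A further allele of the tumor genotype is not reported here.

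Levels are CPM, counts scaled to a library total of 1000000, and per-length levels divide by the merged exon length in GENCODE M21, which held 99.38% of the gene identifiers. Differences were tested on the deposited counts with edgeR 4.0.16 (limma 3.58.1, R 4.3.3) by quasi-likelihood F tests after TMM scaling and filterByExpr. p-values were adjusted by Benjamini-Hochberg over all genes tested, with a threshold of 0.05, and fold changes are log2 with the SE. NFs were fitted over 6 libraries, tumor cells over 4 and both together over 10. Residual degrees of freedom were 1 to 4. The limit of detection was 3 counts.

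Libraries of 1 gel share a number in the labels. The main tests held no term for the gel, and pairing by gel was an alternative only. Deviations from the group mean correlated at r = 0.22 between the NF subsets of a co-culture gel, and at 0.17 and 0.085 between CD26- or CD26+ NFs and tumor cells, over 16231 genes. Alternatives were RLE scaling, DESeq2 1.42.0, other filters, the gel as a block and leaving out libraries.

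The 8 genes are named in every comparison. Of the relatives and receptors, at most the 3 highest and 3 lowest called genes with a mean of at least 1 CPM could be named. The 3 nearest profiles were taken per gene. Named outside these rules, after their values were seen, were Cdh1 and Dpp4 as checks of the labels, Fstl1, Spock3, Dmp1, Tnr and Itgb6 for their low counts, and Tgfbi in CD26- NFs and for the interaction. The members, lists and tests were chosen with earlier results of these data known, and the test of NF against tumor responses was added after the values were seen.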

Additional observations from a re-analysis of the deposited data

Results flagged for a closer look

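The difference between NF subsets in their response to co-culture passed the test for 3 genes in the fit with the gel as a block. That fit called 395 of all 16231 genes, against 61 without the block and 97 with DESeq2. Tnc had -1.13 on the log2 scale, Postn had -1.44 and Sparcl1 had 1.15, where a negative value means a smaller rise in CD26+ NFs. The fit without the block gave -1.14, -1.45 and 1.14 with adjusted p of 0.3561, 0.1578 and 0.2862. DESeq2 without the block called Tnc and Postn. In every fit only gel 1 stood for NFs alone.

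The response to co-culture differed between NFs and tumor cells for Spp1, with 2.57 ± 0.31 (adjusted p = 0.001147) in NFs less tumor cells on the log2 scale. For Postn the same test gave -5.25 ± 0.52 (adjusted p = 0.0004846), but this value rests on 3 and 9 counts in tumor cells alone and is given as a description, and that of Thbs2, with 0 counts there, is not given. In the same tumor libraries the fibroblast markers stood at a median of 0.294% and 0.173% of the NF level of their gel, against 0.942% and 0.525% for Postn, and the part of fibroblast RNA in the Postn value was not tested.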

How the results depend on the processing

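Other scaling moved the median of all genes by at most 0.0638 on the log2 scale. RLE scaling and the minimum of 1 CPM in 2 libraries left the number of the 8 genes called within 1.5 times in all 10 comparisons. For subset within co-culture (3 of 8 called), DESeq2 and the fit with the gel as replicate block each called 6, for the interaction (0 called) DESeq2 called 2 and the replicate block 3, and for culture in tumor cells (3 called) the table without a filter gave 5. The replicate block was fitted for subset over 3 gels, subset in co-culture, the interaction and shared gels only. It also moved Postn over 3 gels and Thbs1 in shared gels past the threshold, and changed no other call there. Leaving out gels left 0-3 of 8 genes called over 3 gels for subset, 4-5 for culture over both subsets (7 called), 1 for culture in CD26- or CD26+ NFs (5 called each), 0 for subset in co-culture and 3-7 in shared gels. Leaving out 1 co-culture library within the 6 NF libraries, an alternative chosen after seeing the data, left 4 in CD26- NFs, 3 in CD26+ NFs and 0-2 for subset in co-culture. There, leaving out the CD26+ library of either gel gave 0.

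Signs turned only for differences that were not called. Spp1 between co-cultured subsets went to -0.083 without the CD26+ library of gel 5. The Fn1 interaction ranged from -0.13 to 0.36 without gel 4 or 5, and was -0.036 and -0.0073 without the CD26- or CD26+ library of gel 4. With culture in tumor cells, Thbs1 ranged from -0.071 (without gel 2) to 1.13 and Sparc from -0.53 to 1.10, below 0 without gel 3 or 4. Between lines, Postn ranged from -0.53 to 1.74 and Spp1 from -0.059 to 0.0069. The values above 0, given without gel 4 or 5, compare only gel 3 with gel 2, the tumor cells grown alone. Leaving out gel 4 and leaving out gel 5 are therefore the same comparison, and for Postn it rests on 9 against 3 counts. The values below 0 compare only the tumor libraries of gels 5 and 4. Fn1 between cells grown alone ranged from -0.066 (without gel 2) to 0.33.

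Counts of all genes called moved by over 1.5 times in these fits. Subset over 3 gels went from 1173 to 124 without gel 5. Culture in CD26- NFs went from 4997 to 418-2947 and in CD26+ NFs from 5556 to 413-3200 without libraries. Subset in co-culture went from 975 to 603 without a filter, 2407 with the block and 0-451 without libraries. The interaction went from 61 to 18 without a filter, 38 with the 1 CPM filter, 97 with DESeq2, 395 with the block and 0-30 without libraries. Culture in tumor cells went from 2942 to 1574 with DESeq2 and 176-675 without libraries, tumor line from 1910 to 2917 without a filter and 945 with DESeq2, and shared gels from 8839 to 3018 and 2614 without gel 4 or 5. Fits without a library differ in their residual degrees of freedom, and those of culture in tumor cells had no term for the line. Without the NFs of gel 4 or 5, culture within 1 subset, subset in co-culture and the interaction took the spread from the 4 tumor libraries, and shared gels without gel 4 or 5 took it from the 2 tumor libraries grown alone. A library left alone in its group was assumed to vary like those. The cause of the other shifts was not tested. For genes near 3 counts, such as Sparcl1 and Thbs2 in tumor cells, depth limits what can be compared.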
